A study of Cavia porcellus with 34 samples.

Results

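The 10 endothelial and blood-brain barrier genes described here were chosen by name and not by their measured values, but with earlier results of these data known. They are CLDN5, ESAM and PECAM1 (adhesion and junctions), FLT1 and KDR (receptors for vascular endothelial growth factor, VEGF), TEK and TIE1 (the angiopoietin receptor and its partner), and MFSD2A, SLC2A1 and ABCB1 (transporters). All 10 were found in each of the 3 expression tables, which together list 12592 genes. RNA was sequenced from micropunches of the hypothalamic paraventricular nucleus (PVN), the nucleus that drives the hormonal stress axis. The animals were juvenile females of the guinea pig (Cavia porcellus), killed at a nominal postnatal day 40. The mean age given in the paper is a few days later. In F2 and F3 the animals belonged to the paternal line. Pregnant F0 dams had been injected with the synthetic glucocorticoid betamethasone (sGC, "Beta" in the labels) or with saline (Veh, "Control"). F1 animals were exposed in utero. F2 and F3 animals descended from exposed males through naive mates and were not treated themselves. F1 held 5 Veh and 5 sGC animals, F2 held 5 and 5, and F3 held 6 and 6. The punch took in the entire PVN and may have held adjacent hypothalamus, and it was whole tissue, so that fewer endothelial cells and less RNA per endothelial cell cannot be told apart in any value below.

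Endothelial cells of brain capillaries are sealed by tight junctions and carry few vesicles, so that nutrients and drugs cross by transporters. VEGF and the angiopoietins are secreted ligands whose receptors on these cells direct vessel growth and stability, and pericytes and astrocyte endfeet wrap the vessel from outside. In the hypothalamus most capillaries have this barrier, and the PVN is known as one of its densely vascularised nuclei.

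The values are the deposited normalized counts, from which the authors had removed unwanted variation. Their sum per animal was 15.6 to 21.9 M (mega) in F1, 15.6 to 19.4 M in F2 and 18.7 to 19.0 M in F3. The defining PVN transcripts AVP, OXT, CRH, TRH and SIM1 were listed in every generation, as were the endothelial transcripts CDH5 and VWF. The summed counts of the 7 PVN neuroendocrine genes ran from 22595 to 217016 in F1, from 61090 to 175321 in F2 and from 16516 to 55734 in F3. A few animals stood apart in the mean of the 10 genes, taken as the log2 deviation from the Veh mean of the same generation. The F1 sGC animals SGM4 and SGM8 lay at 0.88 and 0.70, with 10 of 10 genes above the Veh mean in each, against 0.02 to 0.27 in the other F1 sGC animals. The F1 Veh animal SGM15 lay at -0.39, with 0 of 10 genes above the Veh mean, against -0.05 to 0.30 in the other F1 Veh animals. The F2 Veh animal SGM22 lay at 0.39, with 10 of 10 genes above the Veh mean. In F3 every animal lay between -0.08 and 0.09.

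**Figure D1:**
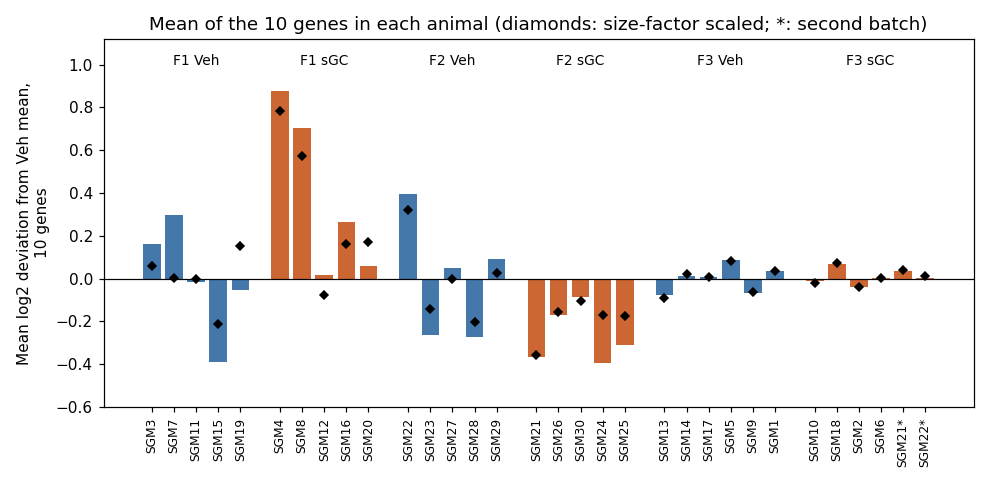
Mean log2 deviation of the 10 genes from the Veh mean of the same generation (vertical axis) in each of the 32 animals (horizontal axis, grouped). Bars are deposited values and diamonds the values after median-of-ratios scaling. SGM4 and SGM8 in F1 sGC and SGM22 in F2 Veh rise above their groups. SGM15 in F1 Veh lies below its group, and the F3 animals lie close to 0. An asterisk marks the second sequencing batch.

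In F1, the fold change of sGC over Veh was above 0 for 10 of 10 genes, and 0 of 10 passed the threshold (limma, Benjamini-Hochberg adjusted p under 0.05 over 11874 genes, of which 0.657% passed). The median log2 fold change of the 10 genes was 0.35, against 0.07 over all genes tested, of which 63.8% were above 0. An unadjusted p under 0.05 was found for 5 of the 10 genes and for 13.6% of all genes. The 10 genes varied together between animals of a group (median r over gene pairs 0.82 in F1 and 0.68 in F2). Counts among the 10 genes are therefore not counts of independent observations, here and in F2. Without SGM4 and SGM8, 8 of 10 were above 0 and the median exceeded that of all genes by 0.05 in place of 0.28. Without the low Veh animal SGM15, 10 of 10 were above 0 and the median exceeded that of all genes by 0.24.

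ABCB1 encodes P-glycoprotein, the efflux pump that returns many drugs and glucocorticoids to the blood. Its normalized counts in the F1 Veh animals were 903, 572, 662, 375 and 809. In the F1 sGC animals they were 1576, 1229, 829, 1134 and 886. The highest 3 values were all from sGC animals, 4 of 5 Veh animals lay below every sGC animal, and the groups overlapped only through the Veh animal at 903. The estimate on the log2 scale was 0.79 with a standard error of 0.20 and a 95% interval of 0.38 to 1.20 (limma, adjusted p = 0.0601). This just missed the threshold over all genes. It passed with a filter at a mean of 50 (limma, adjusted p = 0.0464) and without the Veh animal SGM3 (0.0294) or the sGC animals SGM12 (0.0146) or SGM20 (0.0412), and it reached 0.195 without the Veh animal SGM15. Without both SGM4 and SGM8 it was 0.57 on the log2 scale (limma, adjusted p = 0.134).

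SLC2A1 encodes GLUT1, which carries glucose across the barrier. In F1 Veh its normalized counts were 3145, 3000, 2717, 2366 and 2624, and in F1 sGC they were 4374, 4717, 2725, 3304 and 2865. The 2 highest values were those of SGM4 and SGM8, and the other 3 sGC values overlapped the Veh range or lay just above it. This gave a log2 fold change of 0.35 ± 0.14 (SE), with an adjusted p of 0.282 (limma). MFSD2A, the lysophospholipid carrier that keeps transcytosis low, had 526.6 ± 99.7 (SD, n = 5) in Veh and 587.6 ± 128.7 (SD, n = 5) in sGC, with a log2 fold change of 0.15. In SGM4 it had 546, within the Veh range of 384 to 658, and in SGM8 801. The fold change fell to 0.037 without SGM8 and to 0.024 without both animals, on the log2 scale.

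TEK (TIE2) is the angiopoietin receptor. In F1 Veh it had 220, 209, 184, 133 and 183 normalized counts, and in F1 sGC 496, 257, 220, 227 and 202. The animal SGM4, at 496, was nearly alone in its group, and the groups overlapped at 202 to 220. The fitted log2 fold change was 0.53 ± 0.20 (SE; limma, adjusted p = 0.249), and 0.24 without SGM4 and SGM8. TIE1, an orphan receptor that pairs with TIE2, had 159.6 ± 47.9 (SD, n = 5) in Veh and 237.6 ± 114.0 (SD, n = 5) in sGC. Its log2 fold change of 0.50 was 0.05 without the same 2 animals.

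FLT1 (VEGFR1), which binds VEGF and limits its action, had 2287 ± 438 (SD, n = 5) in F1 Veh and 2892 ± 635 (SD, n = 5) in F1 sGC, with a log2 fold change of 0.33. KDR (VEGFR2), the main signalling receptor, had 466.6 ± 124.9 and 587.6 ± 126.4 (SD, n = 5 each), with a log2 fold change of 0.34. For both genes the ranges of the groups overlapped widely.

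Of the junction genes in F1, PECAM1, an adhesion protein of endothelial contacts, had a log2 fold change of 0.39. Its sGC values of 1192 and 871 came from SGM4 and SGM8, and the other 3 lay at 502 to 588, within the Veh range of 454 to 674. ESAM, an adhesion molecule at endothelial tight junctions, had 0.30, and CLDN5, the main claudin of the brain endothelium, had 0.16. Without SGM4 and SGM8, CLDN5 was at -0.13 and ESAM at -0.03, so that the sign of both rested on these animals.

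**Figure D2:**
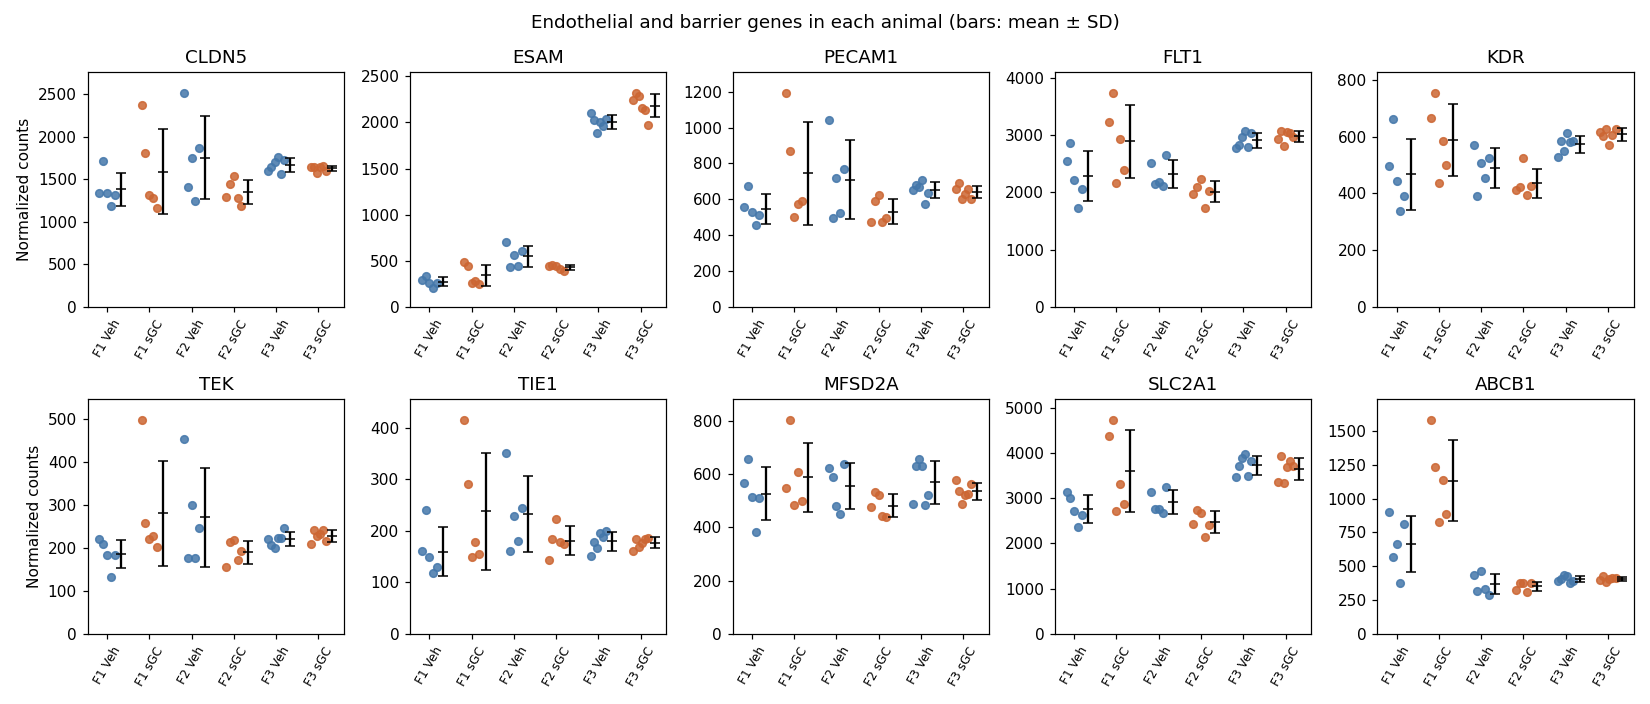
Normalized counts (vertical axes, from 0) of the 10 genes in each animal of the 6 groups, with the mean and SD of each group as bars; each panel has its own scale. The F1 sGC groups are spread upward by 1 or 2 animals in most panels, ABCB1 is higher in the F1 table than in the others, and ESAM lies near 2094 in F3 against 307 in F1.

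Markers of some other cell types, but not of all, differed in the same animals. The summed counts of 8 pericyte and smooth muscle genes were 15145 in SGM4 and 7662 in SGM8, against 4134 to 6009 in F1 Veh and 5390 to 7493 in the other F1 sGC animals. The 7 oligodendrocyte genes summed to 70581 in SGM4 and 104714 in SGM8, against 38364 to 48227 in Veh and 37429 to 49509 in the other sGC animals. The 2 fibroblast and meninges genes tested, FBLN1 and LUM, summed to 1840 in SGM4 and 569 in SGM8, against 360 to 610 in Veh and 493 to 722 in the other sGC animals, with a median of 0.53 relative to all genes. The microglial sum was 6797 in SGM4 and 4780 in SGM8, against 3109 to 4387 in Veh and 3614 to 4484 in the other sGC animals. Both animals lay within the Veh range for choroid plexus and ependyma genes (6484 and 5670, against 4570 to 6923). The same held for red blood cell genes (2804 and 2835, against 2367 to 3379). For astrocyte genes SGM4 (172318) lay within the Veh range of 121826 to 183947 and SGM8 (189136) above it. For neuron genes SGM4 (58878) lay within the Veh range of 55078 to 71810 and SGM8 (78352) above it. The PVN neuroendocrine sum was 22595 in SGM4 and 33046 in SGM8, against 94313 to 217016 in Veh. The sGC animal SGM20, at 47034, was also low in this sum. Its mean over the 10 genes was 0.06, and 0.17 after median-of-ratios scaling. No gene of these lists passed the threshold in F1, and the 7 neuroendocrine genes were all lower, by a median of -1.01 relative to all genes. The part of tissue composition in the values of the 10 genes was not tested.

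In F2 the signs were the opposite. The fold change was below 0 for 10 of 10 genes and 0 of 10 passed (limma, 11965 genes tested, 0% passed). The median log2 fold change was -0.28, against -0.08 over all genes, of which 24.5% were above 0. Unadjusted p-values under 0.05 were found for SLC2A1, ESAM, FLT1 and CLDN5, which is 4 of 10 against 11.7% of all genes. With median-of-ratios or total scaling 1 of 10, ABCB1, was above 0.

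SLC2A1 had 3140, 2768, 2753, 2672 and 3251 normalized counts in F2 Veh, and 2424, 2739, 2671, 2137 and 2414 in F2 sGC. The overlap was slight, since only the sGC animal at 2739 lay within the Veh range. On the log2 scale the difference was -0.24 ± 0.08 (SE; limma, adjusted p = 0.310).

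ESAM had 703, 434, 565, 443 and 604 in F2 Veh and 444, 452, 444, 407 and 393 in F2 sGC. The sGC animals lay close together, and 2 Veh animals lay among them. On the log2 scale the difference was -0.34 ± 0.13 (SE; limma, adjusted p = 0.342).

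FLT1 had 2322 ± 243 (SD, n = 5) in F2 Veh and 2011 ± 185 (SD, n = 5) in sGC, and CLDN5 had 1757 ± 494 and 1350 ± 141 (SD, n = 5 each). Their log2 fold changes were -0.21 and -0.34. The angiopoietin receptors had -0.43 (TEK) and -0.32 (TIE1), PECAM1 -0.37, KDR -0.16 and MFSD2A -0.20. TEK stood at 454 in the Veh animal SGM22 against 177 to 300 in the other Veh animals, and its log2 fold change was -0.22 without that animal. Leaving out SGM22 also brought PECAM1 to -0.22, CLDN5 to -0.20, TIE1 to -0.16 and KDR to -0.10, and ABCB1 to 0.011. ABCB1, with 369.0 ± 76.2 in Veh and 350.8 ± 32.2 in sGC (SD, n = 5 each), had -0.05, with an interval of -0.34 to 0.23. Without SGM22 the median of the 10 genes was 0.13 below that of all genes, in place of 0.20.

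SGM22 also had the highest F2 sum of pericyte and smooth muscle genes, 8648, against 3008 to 4850 in the other Veh animals and 3081 to 4546 in sGC. Its fibroblast and meninges sum, 1277, was also the highest, against 305 to 822 and 445 to 664, as was its microglial sum, 3443, against 2128 to 2917 and 1855 to 2936. The oligodendrocyte sum did not overlap between the F2 groups, at 131516 to 238547 in Veh and 69216 to 112051 in sGC, and 8 of 8 of these genes were lower, none past the threshold (the smallest adjusted p, 0.0622, was that of MOG, a myelin protein; limma). The PVN neuroendocrine sum ran from 61090 to 102096 in Veh and from 84305 to 175321 in sGC. The part of these shifts in the endothelial values was not tested.

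In F3 the 10 genes were split, 5 above and 5 below 0, and 0 of 10 passed (limma, 11866 genes tested, 0.0506% passed). The median log2 fold change was -0.01, against 0.00 over all genes. KDR (0.08) and ESAM (0.12) had the highest values, and MFSD2A (-0.08) and SLC2A1 (-0.04) the lowest. The intervals were narrow, but all genes varied little within the F3 groups (median coefficient of variation 5.33% in Veh and 5.05% in sGC). The processed F3 values also lack 2 directions of variation. The fits therefore count too many degrees of freedom, and the intervals can be too narrow. For ABCB1 the interval ran from -0.09 to 0.10, for CLDN5 from -0.10 to 0.04, and for TEK from -0.07 to 0.17.

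ESAM was the 1 gene with an unadjusted p under 0.05 in F3, against 13.1% of all genes. Its lowest, median and highest normalized counts were 1885, 2018 and 2107 in Veh and 1968, 2196.5 and 2317 in sGC. Of the sGC animals, 5 lay above every Veh animal and 1 from the second sequencing batch, at 1968, lay within the Veh range. The difference on the log2 scale was 0.12 ± 0.04 (SE; limma, adjusted p = 0.215), and what this row counts in F3 is uncertain, as the levels below show. Of the libraries tested, those of the second batch came from 2 sGC animals. In that batch 2 Veh animals were re-sequenced, but these repeat libraries were not used here. The test gave 0 of 10 genes past the threshold in the first batch alone (6 Veh, 4 sGC) or with batch as a covariate. These are not separate checks, since the covariate takes up the 2 sGC animals of the second batch and leaves the same estimates.

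**Figure D3:**
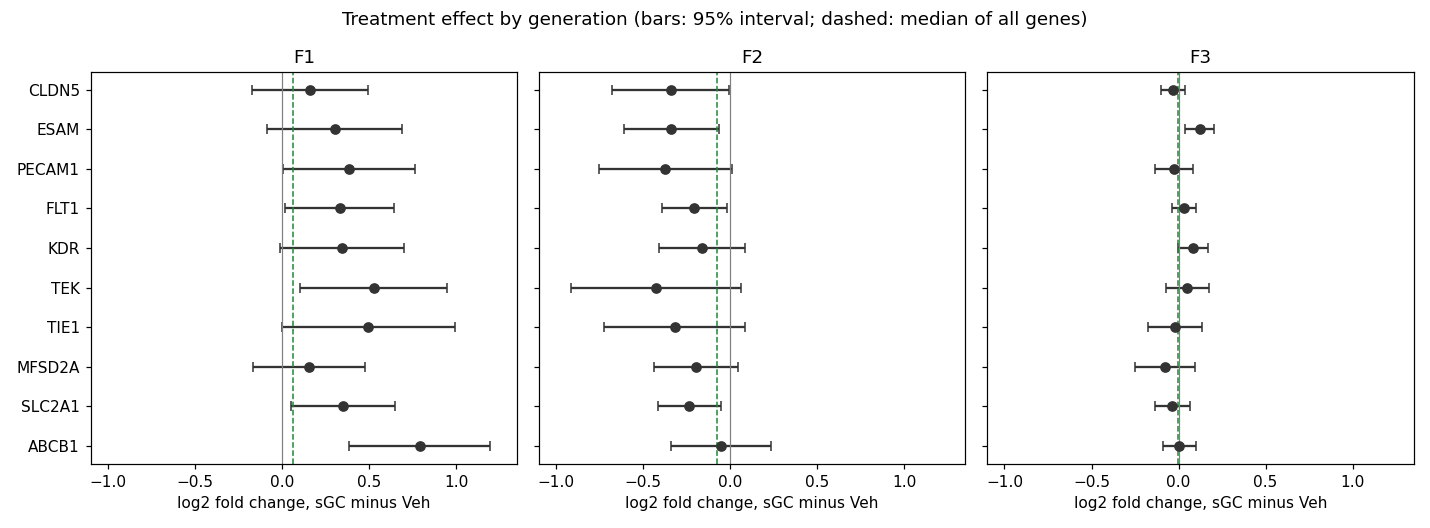
Log2 fold change of sGC over Veh on the log2(value + 1) scale (horizontal axes) for the 10 genes in each generation, with 95% intervals as bars and the median of all genes as a dashed line. All 10 points lie above 0 in F1 and below 0 in F2, and the F3 points lie between -0.08 and 0.12.

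The effects of sGC were then compared between generations by the difference of the log2 fold changes. For F1 minus F3, 1 of 10 genes, ABCB1, passed (limma, 11539 genes, 3.63% passed). Its effect was 0.79 in F1 and 0.01 in F3, a difference of 0.79 ± 0.22 (SE; limma, adjusted p = 0.0459). It was lost when any 1 of 17 of the 22 animals was left out, among them all 12 of F3 and the F1 animals SGM11, SGM15, SGM4, SGM8 and SGM16, with adjusted p-values from 0.0167 to 0.0905 over all 22. This fit shares 1 spread between generations, and in simulated data 17.6% of its calls for F1 minus F3 were unchanged genes, since F3 varied less. With a separate spread in each generation, 1.84% of genes passed and ABCB1 was still under the threshold (limma with Satterthwaite degrees of freedom, adjusted p = 0.0418). The mean level of ABCB1 in F3 and F2 was 0.45 and 0.40 of that in F1. Why the F1 row was higher was not tested, which also limits the comparison with F2 below.

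For F1 minus F2, 0 of 10 genes passed (limma, 11612 genes, 1.37% passed), and an unadjusted p under 0.05 was found for 8 of 10 against 16.4% of all genes. The differences were above 0 in 10 of 10 genes, from 0.35 (MFSD2A) to 0.95 (TEK), and in 74.8% of all genes. Their median was 0.61, against 0.13 over all genes. As within each generation, the 10 genes do not count as independent observations. ABCB1 had 0.84 ± 0.28 (SE; limma, adjusted p = 0.127), and with a separate spread, where 2.41% of genes passed, it was the 1 gene of 10 to pass (adjusted p = 0.0462). Without the F1 sGC animal SGM12 or SGM20, SLC2A1 passed in the shared fit (limma, adjusted p = 0.0465 and 0.0475) and ABCB1 did not. For F2 minus F3, 0 of 10 passed (limma, 11638 genes, 1.52% passed), also with a separate spread (0.722% of genes passed). An unadjusted p under 0.05 was found for 4 of 10 against 16.7% of all genes with the shared spread, of whose simulated calls 15.2% were unchanged genes, and for 3 of 10 against 14.0% with a separate spread. ESAM came closest, at -0.46 ± 0.13 (SE; limma, adjusted p = 0.0683), and passed with median-of-ratios scaling (0.0418), with quantile normalization (0.0240) and without the F2 Veh animal SGM23 (0.0246) or SGM28 (0.0125). With a separate spread its adjusted p was 0.143 (limma), and the F3 side of this difference is the uncertain ESAM row. These comparisons share animals, since each generation enters 2 of them.

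Lists of related genes were described by counts and medians. In F1, of 29 endothelial identity genes 28 were tested, 24 were above 0 and 0 passed, and their median exceeded the all-gene median by 0.27. CDH5, the cadherin of endothelial adherens junctions, had the smallest p among those above 0, at 0.82 on the log2 scale (limma, adjusted p = 0.0830), and PLVAP, a protein of fenestrae and caveolae, among those below 0 (-0.21). In F2, 26 were tested, 25 were below 0 and 0 passed, with a median of -0.19 relative to all genes. ENG, an endothelial co-receptor for TGF-beta, had the smallest p (-0.35 on the log2 scale; limma, adjusted p = 0.147). In F3, 15 of 28 were above 0, with a median of 0.01 relative to all genes.

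PTPRB was the only gene of all the lists to pass in any generation. It encodes VE-PTP, an endothelial phosphatase that acts on TIE2, and stands in the list of VEGF and angiopoietin ligands and co-receptors, where 1 of 9 genes tested passed in F1. It rose from 677.6 ± 73.7 (SD, n = 5) normalized counts in F1 Veh to 1233.8 ± 390.2 (SD, n = 5) in F1 sGC, with ranges of 596 to 797 and 852 to 1793 that did not overlap. Its log2 fold change was 0.82 ± 0.16 (SE; limma, adjusted p = 0.0195). It was no longer past the threshold without the Veh animal SGM15 (0.0665) or SGM19 (0.0572), or without both SGM4 and SGM8 (0.51 on the log2 scale, adjusted p = 0.125). PTPRB stood at -0.41 on the log2 scale in F2 (limma, adjusted p = 0.371) and at -0.07 in F3.

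The remaining vascular lists held no gene past the threshold in any generation. Relative to all genes, the F1 median was 0.11 for 15 tight and adherens junction genes, 0.24 for 12 genes of Wnt and Norrin barrier signalling, 0.13 for 18 other barrier transporters, 0.09 for 5 genes of caveolae and transcytosis and 0.12 for 5 genes of endothelial activation. In F2 the same medians were -0.03, -0.06, -0.02, 0.04 and -0.07, in this order. Pericyte and smooth muscle genes were above 0 in 8 of 8 in F1 and below 0 in 7 of 7 in F2, with medians of 0.28 and -0.19. This opposition in sign was not limited to vascular lists. Microglial genes had medians of 0.29 in F1 and -0.12 in F2, oligodendrocyte genes 0.27 and -0.76, and neuron genes 0.04 and -0.13. Fibroblast and meninges genes had 0.53 and -0.23, and leukocyte and platelet genes 0.27 and -0.21, each from only 2 genes tested per generation. The leukocyte and platelet sums in Veh were 70 to 107 in F1 and 1036 to 1109 in F2. PVN neuroendocrine genes had the reverse signs, -1.01 and 0.40. Astrocyte genes (0.09 and 0.08), choroid plexus and ependyma genes (0.09 and 0.12) and red blood cell genes (-0.29 and -0.02, from 2 and 1 genes) did not follow the opposition.

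**Figure D4:**
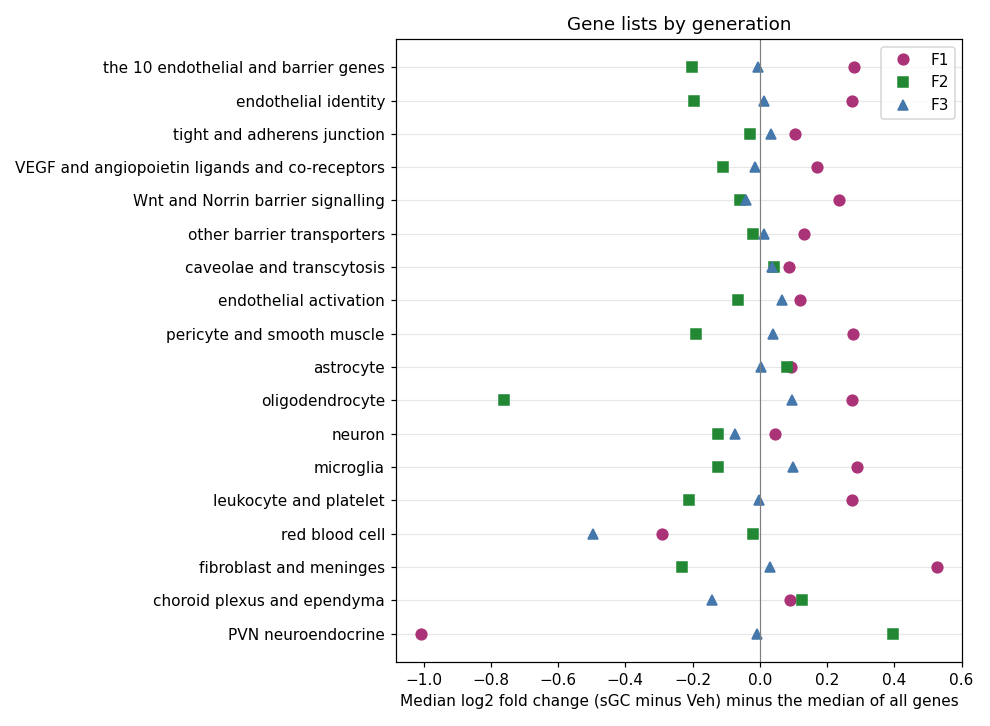
Median log2 fold change (sGC minus Veh) of each gene list, less the median of all genes (horizontal axis), in F1 (circles), F2 (squares) and F3 (triangles). The endothelial and pericyte lists lie at 0.27 to 0.28 in F1 and at -0.19 in F2; oligodendrocyte genes reach -0.76 in F2 and PVN neuroendocrine genes -1.01 in F1.

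How far the genes varied together between animals of 1 group differed by generation and by gene. Over the 45 pairs of genes, the median Pearson r of the deviations from the group means was 0.82 in F1 (10 animals), 0.68 in F2 (10 animals) and 0.33 in F3 (12 animals). The lowest pair had 0.35, -0.10 and -0.59. The median over pairs was 0.84 in F1 without SGM4 and SGM8, and 0.69 in F2 without SGM22. The lowest pair then had 0.17 in F1 and -0.34 in F2. These points share libraries and sample totals. The median r of all other genes with the mean of the 10 was 0.52, 0.51 and -0.03, and about 0 in each generation after median-of-ratios scaling. The pair median of the 10 genes after this scaling was 0.73, 0.40 and 0.32. These measures are unlike, since r with a mean is not r between pairs. In F2 after scaling, MFSD2A, ABCB1, SLC2A1 and FLT1 had r of 0.25, 0.27, 0.32 and 0.39 with the mean of the others. PECAM1 followed the mean of the other 9 genes closely in F1 and F2 (r = 0.93 and 0.99). MFSD2A (0.69 and 0.53) and ABCB1 (0.68 and 0.50) followed it least in those generations. In F3, CLDN5, FLT1 and SLC2A1 had r of 0.86, 0.83 and 0.82, while KDR had 0.28, TEK 0.09 and ESAM -0.19.

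Among 10532 genes whose mean reached 50 in each generation, the 5 whose deviations were most like the mean of the 10, by the smallest r of the 3 generations, were COL4A1 (0.84), ATP2A3 (0.83), ADGRF5 (0.83), ZNF691 (0.82) and MPZL1 (0.82). COL4A1 is a collagen of the basement membrane and ADGRF5 a receptor of endothelial cells. After scaling, VWF and EFEMP2 took the places of ZNF691 and MPZL1.

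The spread within groups also differed between the generations. The median coefficient of variation of the 10 genes was 29.0% in F1 sGC and 18.5% in F1 Veh, against 11.1% and 16.1% over all genes whose mean reached 50. In F2 it was 20.6% in Veh and 10.04% in sGC, against 10.1% and 10.6%. In F3 it was 5.7% in Veh and 5.65% in sGC, against 5.33% and 5.05%. TIE1 was the most variable of the 10 in F1 sGC (48.0%) and TEK in F2 Veh (42.4%).

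Levels can be set side by side across generations only with caution, since each table was normalized separately. For 8 of the 10 genes the table means of any 2 generations were within 1.37-fold. ABCB1 had a mean of 897.5 normalized counts in F1, 359.9 in F2 and 405.3 in F3, so that F2 and F3 were at 0.40 and 0.45 of F1. Its r with the neighbouring gene RUNDC3B, looked at after the levels were seen, was 0.45, -0.31 and 0.27 in F1, F2 and F3. With the mean of the other genes it was 0.68, 0.50 and 0.70. Why the F1 row of ABCB1 was higher was not tested. ESAM had 306.6, 488.9 and 2094.1, so that F3 was 6.83-fold above F1 and 4.28-fold above F2. A difference of at least 4-fold was found for 1.90% (F3 against F1) and 1.46% (F3 against F2) of 10778 genes.

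ESAM lies next to VSIG2 and then NRGN, which encodes the neuronal protein neurogranin, in the gene order of RefSeq assembly mCavPor4.1, which is not the build of the files. These neighbours were looked at after the levels were seen. VSIG2 had a mean of 1441 in F1 and 1659 in F2, and no VSIG2 row was analysed here in F3. The sum of the ESAM and VSIG2 rows was 1748 in F1, 2148 in F2 and 2094 in F3, the last from ESAM alone. ESAM followed the mean of the other 9 genes with r = 0.98 in F1 and 0.91 in F2, but with r = -0.19 in F3, where its r with NRGN was 0.87 against 0.36 in F1 and 0.00 in F2. The F3 row named ESAM is therefore uncertain as a measure of the endothelial transcript, and how reads were assigned between these genes was not tested.

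**Figure D5:**
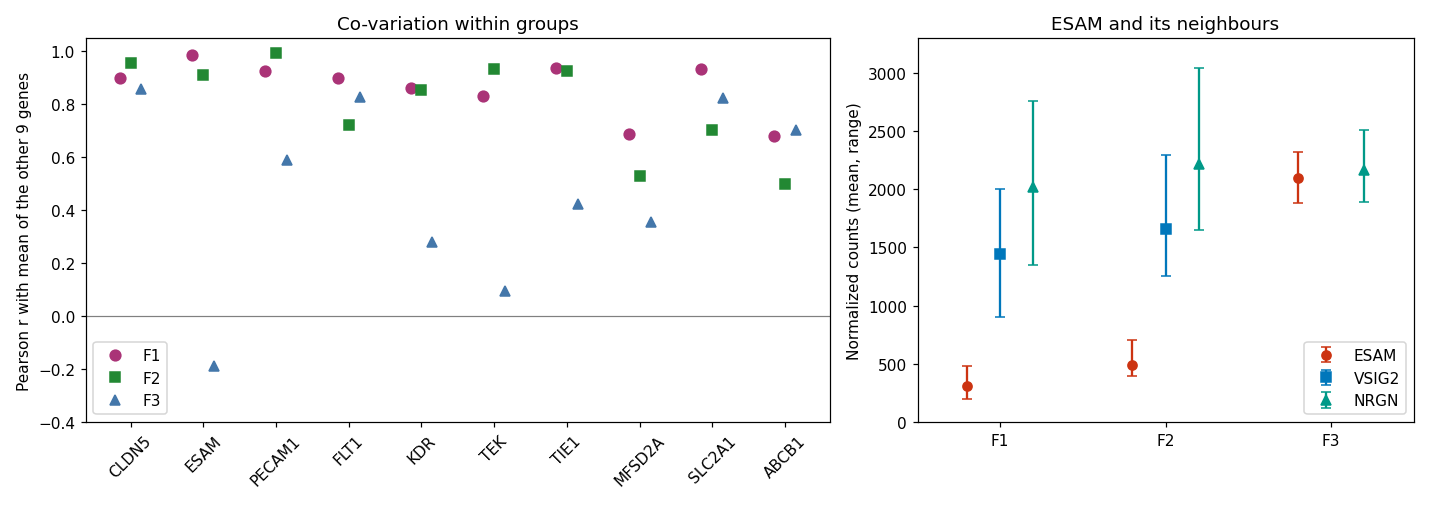
Left, Pearson r of each gene with the mean of the other 9 genes (vertical axis), over deviations from group means in F1 (circles), F2 (squares) and F3 (triangles). ESAM has 0.98 in F1 and 0.91 in F2, and -0.19 in F3. Right, mean normalized counts with the range over animals for ESAM, VSIG2 and NRGN in each generation; VSIG2 is shown for F1 and F2 only.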

How the data were processed

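RNA sequencing of PVN punches was analysed in 32 animals. Reads were aligned to cavPor3 (TopHat2 is named in the submitters' notes) and counted per gene, and outliers were removed by Cook's distance. F3 batches were corrected with ComBat. The authors then normalized by residuals with RUVSeq and deposited normalized counts rounded to whole numbers, a score with no count model. The values of F1 and F2 lack 1 direction of variation each and those of F3 lack 2, so fewer degrees of freedom are left than the fits count. The tables also hold the authors' fold changes and p-values from edgeR, which were not used. The 2 re-sequenced F3 Veh libraries among 34 samples were not used here.

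Genes whose mean reached 10 were tested separately in F1, F2 and F3 on the log2(value + 1) scale. Linear models were fitted by limma 3.58.1 (lmFit; eBayes, trended prior; R 4.3.3), no scaling was added, and p-values were adjusted after Benjamini-Hochberg over all genes, with a threshold of 0.05. A fold change on this scale understates that of low genes. Differences between generations were a contrast in 1 fit of both tables. The fits with a separate spread, with the removed directions as covariates, with a block by the number in the column names, without both SGM4 and SGM8, and with size factors but without SGM22 were added after seeing the data.

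The genes and lists were chosen with earlier results of these data known. All 10 genes are described; of other lists, genes under the threshold or with the smallest p in each direction are named, and the 5 genes most alike. The alternatives were a pseudocount of 10, a filter at 50 or none, size factors, total or quantile scaling, F3 batch, the removed directions as covariates and each animal left out. In simulated data with 200 changed genes, 87.0%, 92.0% and 99.0% of them were recovered in F1, F2 and F3, and 4.92%, 5.15% and 3.88% of the calls were unchanged genes (11874, 11965 and 11866 genes). For the differences, unchanged genes made up 5.92% of calls in F1 minus F2, 17.6% in F1 minus F3 and 15.2% in F2 minus F3, and 6.86%, 7.43% and 8.59% with a separate spread. Recovery of effects as small as those of the 10 genes was not tested. Precision is set by the number of animals, and no count-based interval is given. By the study's methods, sample numbers count independent litters. No coordinates or sequences are given, because no genome of the build was used here.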

Additional observations from a re-analysis of the deposited data

Results flagged for a closer look

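Over 60 groups of values (10 genes in 6 groups), 2 held an animal far from the others of its group by Dixon's criterion, where chance gives about 3. TEK in the F1 sGC animal SGM4 was 8.96 on the log2 scale (496 normalized counts), against 7.67 to 8.01 (202 to 257) in the other 4. KDR in the F2 sGC animal SGM30 was 9.04 (524 normalized counts), against 8.63 to 8.74 (394 to 426) in the other 4. The effect of sGC on ABCB1 differed between F1 and F3 by 0.79 on the log2 scale (limma, adjusted p = 0.0459), with 0.79 in F1 and 0.01 in F3. The mean level of ABCB1 in F3 was 0.45 of that in F1, and the reason was not tested.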

How the results depend on the processing

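Veh and sGC titles of a generation share no number, but the column names count samples from 1 in each group, and no source says that these counts pair them. Same-numbered samples deviated together (r over 0.1) in 1 of 5 pairs in F1, 1 of 5 in F2 and 2 of 6 in F3, and 1 of 10, 2 of 10 and 1 of 12 samples correlated best with their own number. With this number as a replicate block, added after seeing the data, 0 of 10 genes passed in each generation, and the counts over all genes were 146 in F1, 6 in F2 and 0 in F3, in place of 78, 0 and 6. Of the 10 genes, 0 passed in F1, and 1 with a filter at a mean of 50 (ABCB1). Leaving out each animal gave 0 to 1 in F1, and 0 in F2 and F3. The F1 median above that of all genes (0.28) ran from 0.19 to 0.39 without 1 animal, the F2 median (-0.20) from -0.25 to -0.13 and the F3 median from -0.02 to 0.01. Genes whose effect differed for F1 minus F2 were 0, with 1 under a separate spread (ABCB1) and 0 to 1 without 1 animal (SLC2A1, without SGM12 or SGM20). For F1 minus F3 they were 1, and 0 to 1 without 1 animal. For F2 minus F3 they were 0, with 1 after median-of-ratios scaling, 1 after quantile normalization and 0 to 1 without 1 animal.

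The sign of ABCB1 in F2 turned to 0.020 with size factors, 0.030 with total scaling and 0.067 with size factors and without SGM22, and it ran from -0.13 to 0.035 without 1 animal. Its F2 minus F3 difference turned to 0.013 with size factors and 0.026 with total scaling, and ran from -0.14 to 0.030. In F3, ABCB1 turned to -0.0095 in the first batch alone and with batch as a covariate and ran from -0.018 to 0.026, and TIE1 ran from -0.0699 to 0.011. CLDN5 (-0.13) and ESAM (-0.025) turned in F1 without SGM4 and SGM8. The causes were not tested. Counts over all genes moved far more. In F1 they went from 78 to 2058 with size factors, 1943 with total scaling and 2084 with quantile normalization, in F2 from 0 to 17 with a mean of 50 and 42 with quantile normalization, and in F3 from 6 to 2 in the first batch, 3 with the batch covariate and 1 with the removed directions as covariates. For the differences they went from 159 to 280 with a separate spread, 516 with size factors, 490 with total scaling and 589 with quantile normalization (F1 minus F2), from 419 to 212, 2536, 2480 and 2583 in the same order (F1 minus F3), and from 177 to 84 with a separate spread and 287 with quantile normalization (F2 minus F3). Without 1 animal, F1 gave 15 to 474 genes, F2 0 to 114 and F3 1 to 15.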
